A study of Saccharomyces cerevisiae with 16 samples.

Results

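The trehalose and glycogen metabolism genes were followed by RNA-seq in WT and lsm1∆ cells of Saccharomyces cerevisiae during treatment with hydroxyurea (HU), an inhibitor of ribonucleotide reductase that stalls DNA replication. The genes were picked by name from the 7126 genes listed for every library, and all 10 were found: TPS1, TPS2, TPS3, TSL1, NTH1, GSY1, GSY2, GPH1, GLC3 and PGM2. The WT strain was BY4741, and the lsm1∆ strain was a deletion of LSM1 in the BY4741 background. LSM1 encodes a subunit of the cytoplasmic Lsm1-7 complex, which promotes decapping and decay of mRNA and is needed for functional P-bodies. Both strains were grown in YPD and sampled untreated and after 1, 2 and 4 h in 200 mM HU, which gave 8 conditions of 2 libraries each, 16 in all. The lsm1∆ cells came from a single strain, and the replicates are described as a repeat of the experiment and also as technical, so that p-values here measure only the spread between these libraries.

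Trehalose and glycogen are the storage carbohydrates of budding yeast, and trehalose also protects proteins and membranes under stress. Both are made from UDP-glucose, which phosphoglucomutase and UDP-glucose pyrophosphorylase supply from glucose that has been phosphorylated. A synthase and a phosphatase make trehalose within one protein complex, and trehalases split it. Glycogen is built on a primer by glycogen synthase and the branching enzyme, and taken down by glycogen phosphorylase and the debranching enzyme. Many of these genes are known to be transcribed more strongly when growth slows, through stress response elements (STREs) bound by Msn2 and Msn4, so that enzymes of synthesis and breakdown are often induced together.

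The values are FPKM, fragments scaled to the length of the gene and to the size of the library, as estimated by Cufflinks. A gene was called when limma's moderated test on log2(FPKM + 1), fitted to all 16 libraries and adjusted by Benjamini-Hochberg over 6977 genes, gave an adjusted p-value below 0.05. Log2 ratios are differences on that scale, and fold changes are taken from them. They were also computed with each library centred on its median log2 value, because the genes as a whole shifted between the strains, with median log2 ratios of 0.13, 0.04, 0.17 and 0.37 for lsm1∆/WT at 0, 1, 2 and 4 h. The relative depth of the libraries, read from whole-read steps in 125 low genes, was 0.897 to 1.095 of the average, and the total number of reads was unknown. LSM1 was at 111 to 181 FPKM in WT and at most 0.761 FPKM in lsm1∆. URA3, LEU2 and MET17, deleted in BY4741, were listed at 0 in all 16 libraries. The HU-induced genes RNR3 and HUG1 rose in WT at 4 h by log2 ratios of 5.32 and 8.34, and at 4 h RNR3 and LSM1 stood at 1.25 and -6.62 in lsm1∆ against WT. Of the mating type markers, the a-cell genes MFA1 and STE2 were at 4096 to 9675 and 177 to 377 FPKM, while the alpha-cell genes MFALPHA1 and STE3 were at most 3.40 and 8.64 FPKM. BAR1, another a-cell gene, fell by 1.44 in WT at 4 h, and MFALPHA1 and STE3 rose by 1.67 and 0.87 from these low levels. At 4 h MFA1 and STE2 stood at -0.77 and -0.40 in lsm1∆ against WT and STE3 at 0.93, and the call of STE2 was lost without WT replicate 2 or either lsm1∆ replicate, at -0.34 to -0.41.

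All 10 genes carry STREs, spelled AGGGG, within 500 bases before the start codon. Counting both strands and every position, with overlapping matches counted, the number was 6 for TPS1, 5 for TSL1 and PGM2, 4 for TPS2, 3 for NTH1 and GLC3, and 2 for TPS3, GSY1, GSY2 and GPH1. At least 1 STRE was found for 34.1% of 6006 genes, at least 2 for 8.18% and at least 3 for 1.83%, against 10, 10 and 6 of the 10 genes. The post-diauxic shift element TNAGGGAT, recognised by Gis1, was found before 0 of the 10 genes and 4.05% of all genes. The heat shock element GAANNTTC was found before TSL1 alone among the 10 genes, with 2 matches, and before 19.2% of all genes. These are matches of letters and not tested sites, and no match says only that the letters are not in the window.

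The stretches below span the STREs with up to 10 bases on each side, 5′ to 3′ on the strand of the gene, from genome build R64 (sacCer3). Capitals mark AGGGG or, on the opposite strand, CCCCT. They are shown because these 5 genes cover the range of the HU response, from PGM2 and GPH1 with the highest ratios to TPS3 and GSY1 with the lowest in WT at 4 h. The PGM2 stretch lies at chrXIII:477808-478022 on the minus strand, that of GPH1 at chrXVI:860939-860994 on the plus strand and that of TSL1 at chrXIII:70236-70473 on the plus strand. Those of GSY1 and TPS3 lie at chrVI:176709-176868 and chrXIII:793572-793614, both on the minus strand. The 500-base windows of TPS1, TPS3, TSL1 and PGM2 overlap a neighbouring gene by 43, 144, 174 and 43 bases.
PGM2: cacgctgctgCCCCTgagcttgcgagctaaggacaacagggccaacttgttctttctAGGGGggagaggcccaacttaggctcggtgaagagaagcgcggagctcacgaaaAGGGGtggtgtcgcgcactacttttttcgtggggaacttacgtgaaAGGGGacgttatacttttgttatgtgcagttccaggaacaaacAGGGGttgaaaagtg
GPH1: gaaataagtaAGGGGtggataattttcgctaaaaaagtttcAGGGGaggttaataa
TSL1: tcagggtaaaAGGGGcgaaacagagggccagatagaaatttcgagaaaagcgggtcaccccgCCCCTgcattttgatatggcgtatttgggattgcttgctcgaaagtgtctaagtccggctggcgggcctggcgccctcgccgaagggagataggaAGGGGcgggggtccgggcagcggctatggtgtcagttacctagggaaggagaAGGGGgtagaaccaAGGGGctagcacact
GSY1: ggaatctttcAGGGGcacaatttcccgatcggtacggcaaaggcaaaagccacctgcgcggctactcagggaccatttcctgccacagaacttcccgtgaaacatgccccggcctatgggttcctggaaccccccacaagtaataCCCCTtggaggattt
TPS3: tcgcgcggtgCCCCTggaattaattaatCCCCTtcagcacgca

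Most of the trehalose and glycogen genes were higher in HU than before it in both strains, within 1 h and up to 4 h. Untreated cells were sampled only at the start, so that HU and time in culture cannot be told apart. PGM2 and GPH1 rose most, while GSY1 and TPS2 did not pass the test at any time in WT. In WT, 7, 7 and 8 of the 10 genes were called higher at 1, 2 and 4 h, and 0 were called lower. Of all genes tested, 36.0%, 31.1% and 22.0% were called higher at those times. In lsm1∆, 8, 9 and 10 of the 10 were called higher and 0 lower, beside 25.0%, 38.6% and 43.6% of all genes. The median log2 ratio of the 10 genes was 1.06, 1.18 and 1.42 in WT and 1.25, 1.46 and 1.75 in lsm1∆, while that of all genes was 0.22, 0.16 and -0.03 in WT and 0.14, 0.23 and 0.27 in lsm1∆. With the libraries centred, 6, 7 and 9 were called higher in WT, where 14.6%, 18.3% and 23.9% of all genes were, and 7, 8 and 8 in lsm1∆, where 13.9%, 18.9% and 23.1% were. Each time of a strain was set against the same untreated libraries, so that the 3 comparisons are not independent. As whole cultures were sampled, more transcript per cell and more cells that express a gene cannot be told apart. When the WT untreated and 1 h libraries were fitted alone, the count at 1 h was 2.

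**Figure D1:**
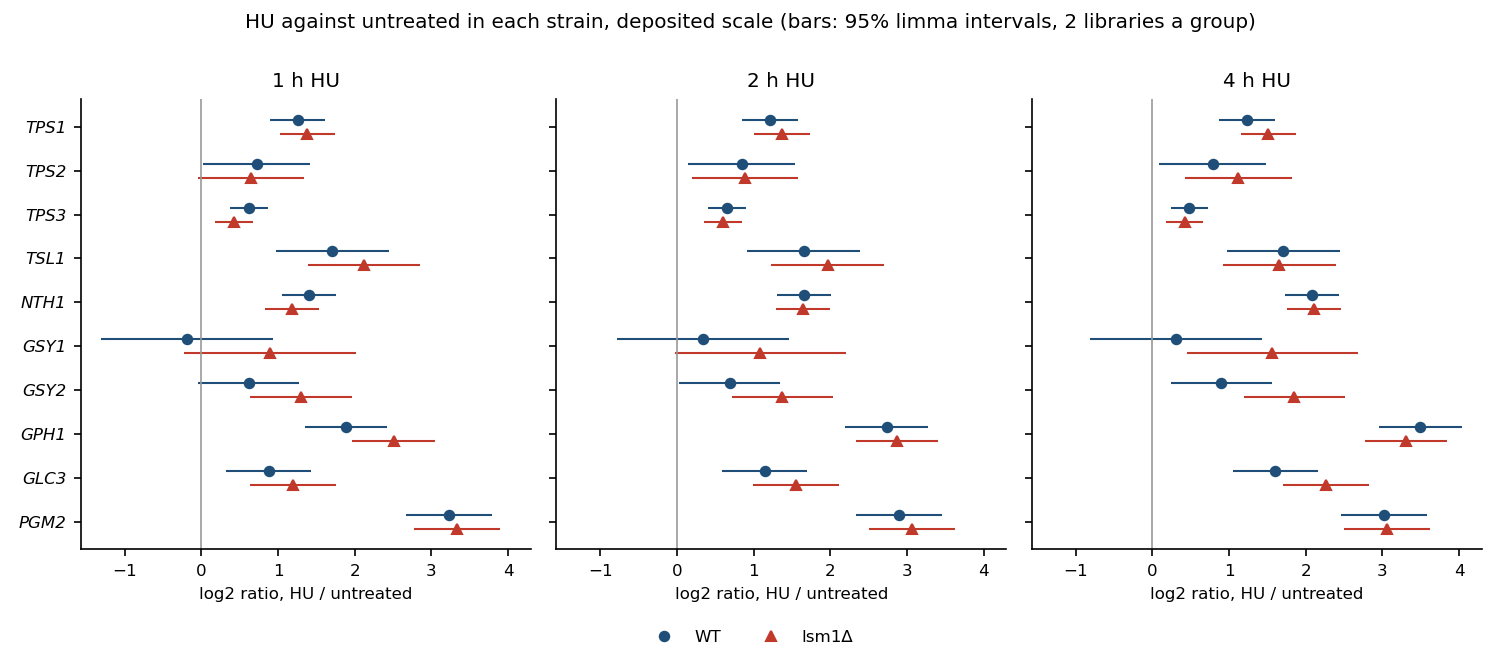
Log2 ratio of HU-treated to untreated cells (x axis, log2(FPKM + 1) scale) for the 10 genes (rows) at 1, 2 and 4 h, in WT (circles) and lsm1∆ (triangles), with 95% intervals from limma and 2 libraries per condition. At 4 h GPH1 stands at 3.49 in WT and 3.31 in lsm1∆, while GSY1 stands at 0.31 in WT and 1.56 in lsm1∆.

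TPS1 (YBR126C, chromosome II, bases 488905 to 490392) encodes the trehalose phosphate synthase and was the most abundant of the 10 transcripts in 7 of the 8 conditions. In WT it was at 140.3 and 101.0 FPKM untreated, 331.8 and 245.6 at 1 h, 281.4 and 272.9 at 2 h, and 277.8 and 285.0 at 4 h. In lsm1∆ it was at 146.6 and 133.5 FPKM untreated, 393.4 and 339.7 at 1 h, 354.4 and 372.7 at 2 h, and 396.2 and 404.3 at 4 h. Each HU library was above each untreated library of its strain, and TPS1 rose by log2 ratios of 1.25, 1.21 and 1.23 in WT and 1.38, 1.37 and 1.51 in lsm1∆. The strains overlapped untreated, and at 4 h lsm1∆ was called higher by 0.51 ± 0.16 (SE, n = 2 per strain, limma adjusted p = 0.0220). That call was lost with each of the 4 libraries left out in turn, at values of 0.49 to 0.53. The ratio at 1 h, 0.36, passed the test without WT 1 h replicate 1, at 0.57.

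TPS2 (YDR074W, chromosome IV, bases 593893 to 596583) encodes the trehalose phosphate phosphatase, and it did not pass the test in WT. The WT libraries held 96.6 and 46.1 FPKM untreated, 132.8 and 92.3 at 1 h, 117.0 and 124.5 at 2 h, and 114.1 and 117.6 at 4 h. The lsm1∆ libraries held 74.2 and 51.4 FPKM untreated, 111.6 and 84.6 at 1 h, 105.4 and 125.9 at 2 h, and 132.2 and 138.5 at 4 h. The untreated libraries of WT differed by more than the HU libraries at 2 and 4 h did, and the WT groups overlapped at 1 h. TPS2 was called in lsm1∆ at 2 and 4 h, at 0.89 and 1.12, and at no time in WT, where its ratios were 0.72, 0.84 and 0.78. Without WT untreated replicate 1 the WT ratios were 1.25, 1.37 and 1.31 and all passed the test. In lsm1∆ the call at 2 h was lost without untreated replicate 2, at 0.63, and without replicate 1 or 2 of 2 h, at 1.02 and 0.76. The call at 4 h was lost without untreated replicate 2, at 0.86, and without 4 h replicate 2, at 1.09. After centring, TPS2 was called in WT at 4 h, at 0.81, and not in lsm1∆ at 2 h, at 0.62.

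TPS3 and TSL1 encode the related regulatory subunits of the trehalose synthase complex, with 67.2% identical bases in their aligned coding sequences. TPS3 (YMR261C, chromosome XIII, bases 790205 to 793369) moved least of the genes that rose in WT. In WT it was at 48.2 and 42.8 FPKM untreated, 79.5 and 62.6 at 1 h, 71.1 and 72.5 at 2 h, and 66.2 and 61.5 at 4 h. In lsm1∆ it was at 45.0 and 43.1 FPKM untreated, 63.6 and 55.3 at 1 h, 65.3 and 69.2 at 2 h, and 58.9 and 59.6 at 4 h. TPS3 was called higher at all 3 times in each strain, by 0.62, 0.65 and 0.48 in WT and 0.42, 0.60 and 0.42 in lsm1∆. The call in lsm1∆ at 1 h was lost without untreated replicate 2, at 0.39, and without 1 h replicate 1, at 0.32. With the libraries centred, the ratios in lsm1∆ at 1 and 4 h were 0.26 and 0.11 and did not pass the test. The strain ratio at 1 h, -0.25, passed the test without WT 1 h replicate 2, at -0.42.

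TSL1 (YML100W, chromosome XIII, bases 70624 to 73920) had higher HU ratios than its paralogue. The WT libraries held 54.0 and 22.6 FPKM untreated, 142.0 and 96.2 at 1 h, 104.6 and 120.9 at 2 h, and 118.3 and 115.5 at 4 h. The lsm1∆ libraries held 53.5 and 45.5 FPKM untreated, 249.9 and 189.8 at 1 h, 180.1 and 212.3 at 2 h, and 154.6 and 161.0 at 4 h. TSL1 rose by 1.71, 1.65 and 1.71 in WT and by 2.12, 1.96 and 1.66 in lsm1∆, and each of these calls held with any single library left out. The lsm1∆ libraries were above those of WT at each time in HU, but the strain ratios of 0.89, 0.79 and 0.43 did not pass the test. The untreated ratio of 0.48 passed without WT untreated replicate 1, at 1.09, and that at 1 h without WT 1 h replicate 1, at 1.17. The FPKM ratio of TSL1 to TPS3 was 0.528 and 1.12 in untreated WT and 1.06 and 1.19 in untreated lsm1∆, and reached 3.43 and 3.93 in lsm1∆ at 1 h, where WT was at 1.54 and 1.79.

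**Figure D2:**
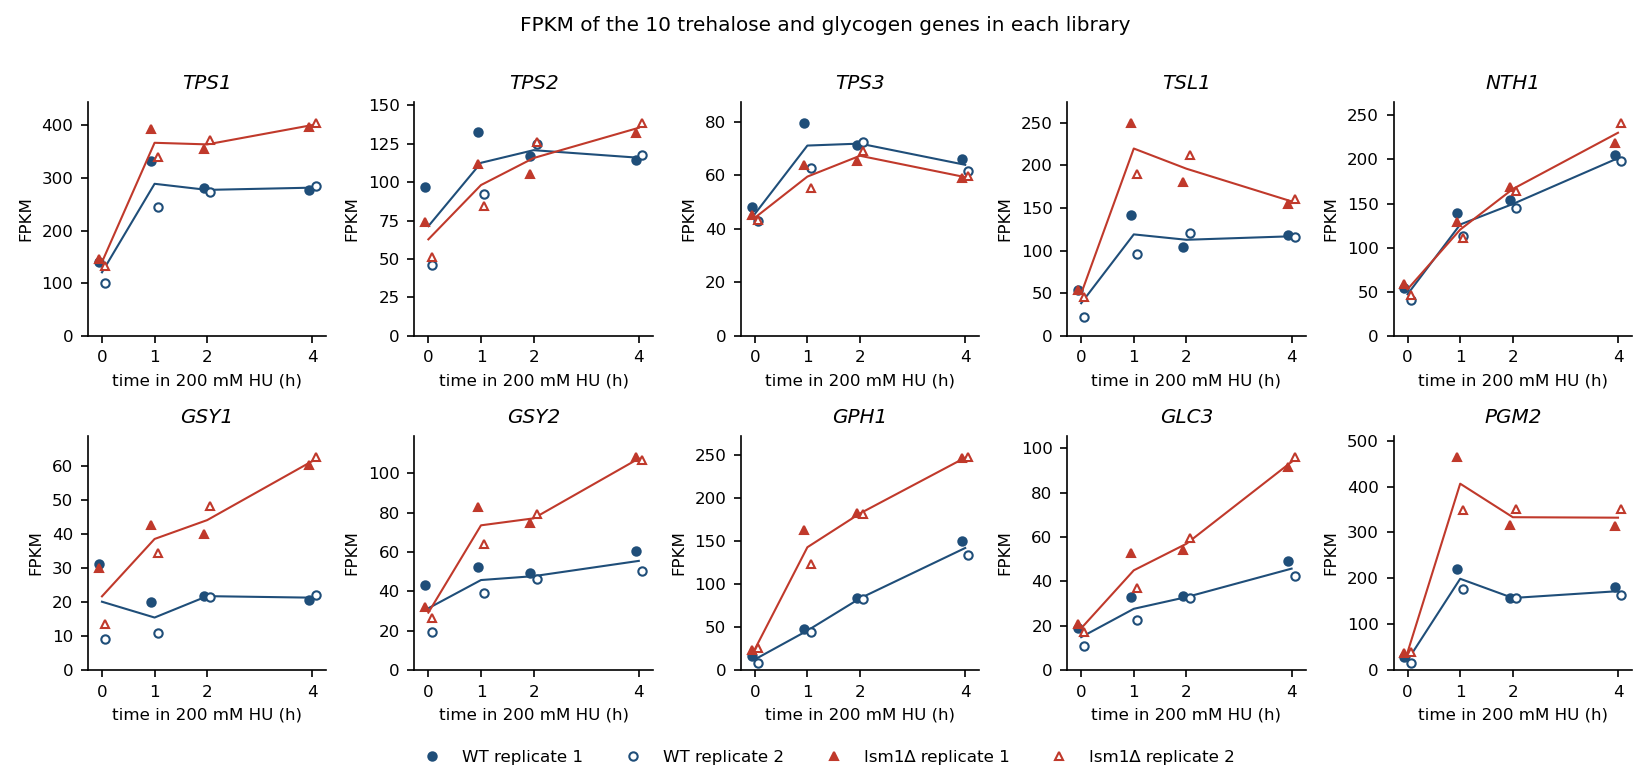
FPKM (y axis, linear, from 0) of each of the 10 genes against time in 200 mM HU (x axis, h) for WT (circles) and lsm1∆ (triangles), with replicate 1 filled, replicate 2 open and lines through the means of 2 libraries. The means of PGM2 and TSL1 peak at 1 h in lsm1∆, at 406 and 220 FPKM. For both genes, lsm1∆ replicate 2 at 1 h is below lsm1∆ replicate 2 at 2 h. The means of GPH1, GLC3, GSY2 and NTH1 are highest at 4 h in both strains.

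NTH1 (YDR001C, chromosome IV, bases 450220 to 452475) encodes the neutral trehalase, the main cytosolic enzyme that splits trehalose. Its mean level was higher at each later time in both strains. In WT it was at 54.3 and 40.2 FPKM untreated, 138.8 and 113.7 at 1 h, 153.5 and 145.5 at 2 h, and 204.9 and 198.2 at 4 h. In lsm1∆ it was at 59.3 and 46.5 FPKM untreated, 129.6 and 111.3 at 1 h, 168.7 and 164.3 at 2 h, and 219.1 and 241.5 at 4 h. NTH1 rose by 1.41, 1.66 and 2.09 in WT and by 1.18, 1.65 and 2.11 in lsm1∆, which is 4.24-fold and 4.32-fold at 4 h. These 6 calls held with any single library left out. The strain ratio at 4 h was 0.19, with a 95% interval from -0.16 to 0.54, and that of untreated cells was 0.17, from -0.19 to 0.52.

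GSY1 and GSY2 encode the isoforms of glycogen synthase, with 73.2% identical bases, and no 50-base stretch of either occurs elsewhere in the genome. GSY1 (YFR015C, chromosome VI, bases 174265 to 176391) is the minor isoform. The WT libraries held 31.2 and 9.07 FPKM untreated, 20.2 and 10.8 at 1 h, 21.9 and 21.6 at 2 h, and 20.6 and 22.1 at 4 h. The lsm1∆ libraries held 29.9 and 13.5 FPKM untreated, 42.7 and 34.4 at 1 h, 39.9 and 48.3 at 2 h, and 60.4 and 62.7 at 4 h. In WT the untreated libraries enclosed every HU value, and the ratios of -0.19, 0.34 and 0.31 did not pass the test. In lsm1∆ the HU libraries were above both untreated ones, and GSY1 was called at 4 h, at 1.56 ± 0.50 (SE, n = 2 per condition, limma adjusted p = 0.0212), but not at 1 and 2 h, at 0.90 and 1.09. The call at 4 h was lost without lsm1∆ untreated replicate 2, at 1.01, and without 4 h replicate 1 or 2, at 1.59 and 1.54. It was also lost after centring, at 1.25. The ratio at 2 h passed without untreated replicate 1, at 1.64. At 4 h lsm1∆ was called above WT by 1.49 (2.80-fold), and this was lost with each of the 4 libraries left out, at 1.44 to 1.54.

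GSY2 (YLR258W, chromosome XII, bases 660716 to 662833) encodes the major glycogen synthase. In WT it was at 43.3 and 19.6 FPKM untreated, 52.5 and 39.0 at 1 h, 49.3 and 46.2 at 2 h, and 60.6 and 50.4 at 4 h. In lsm1∆ it was at 31.9 and 26.5 FPKM untreated, 82.9 and 64.2 at 1 h, 74.7 and 79.5 at 2 h, and 108.2 and 106.8 at 4 h. The WT libraries at 1 h overlapped the untreated ones, whereas the lsm1∆ libraries at each time were above both untreated ones. GSY2 rose in lsm1∆ by 1.30, 1.38 and 1.85. In WT its ratios were 0.62, 0.69 and 0.90, of which the last was called. The first and second passed without WT untreated replicate 1, at 1.17 and 1.24. The call at 4 h was lost without WT untreated replicate 2, at 0.35, and without WT 4 h replicate 1 or 2, at 0.77 and 1.03. In lsm1∆ the call at 1 h was lost without 1 h replicate 1, at 1.12. At 4 h lsm1∆ was called above WT by 0.95, and this was lost without WT replicate 2, at 0.82, and without lsm1∆ replicate 1 or 2, at 0.94 and 0.96.

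GLC3 (YEL011W, chromosome V, bases 133120 to 135234) encodes the glycogen branching enzyme and its mean was highest at 4 h in both strains. The WT libraries held 18.9 and 10.9 FPKM untreated, 32.8 and 22.5 at 1 h, 33.4 and 32.5 at 2 h, and 49.0 and 42.5 at 4 h. The lsm1∆ libraries held 20.6 and 17.1 FPKM untreated, 52.8 and 37.2 at 1 h, 54.3 and 59.7 at 2 h, and 91.8 and 96.1 at 4 h. The strains overlapped untreated and not at 1, 2 or 4 h. GLC3 rose by 0.88, 1.14 and 1.60 in WT and by 1.20, 1.55 and 2.26 in lsm1∆. The call in WT at 1 h was lost without WT untreated replicate 2, at 0.50, without 1 h replicate 1, at 0.61, and after centring, at 0.63. At 4 h lsm1∆ was called above WT by 1.02 ± 0.25 (SE, n = 2 per strain, limma adjusted p = 0.00555), and this held with any single library left out. The strain ratio at 2 h, 0.77, was called and was lost with each of the 4 libraries left out, at 0.70 to 0.84. That at 1 h, 0.69, was not called and passed without WT 1 h replicate 1, at 0.95, or without lsm1∆ 1 h replicate 2, at 0.93.

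GPH1 (YPR160W, chromosome XVI, bases 861306 to 864014) encodes glycogen phosphorylase, which releases glucose phosphate from glycogen, and its mean level was higher at each later time. In WT it was at 16.6 and 8.13 FPKM untreated, 47.2 and 44.7 at 1 h, 84.4 and 82.7 at 2 h, and 150.5 and 133.7 at 4 h. In lsm1∆ it was at 23.0 and 25.2 FPKM untreated, 162.9 and 123.0 at 1 h, 182.7 and 181.9 at 2 h, and 246.6 and 247.9 at 4 h. Every lsm1∆ library was above both WT libraries of its time. GPH1 rose by 1.89, 2.74 and 3.49 in WT, which is 11.3-fold at 4 h, and by 2.51, 2.87 and 3.31 in lsm1∆, 9.90-fold at 4 h. Against WT, lsm1∆ was called higher by 0.98 untreated, 1.60 at 1 h (3.04-fold), 1.12 at 2 h and 0.80 at 4 h. The untreated call was lost without lsm1∆ untreated replicate 2, at 0.92, and the call at 4 h without WT replicate 2, at 0.71, or without lsm1∆ replicate 1 or 2, at 0.80 and 0.79. The library kit does not keep the strand, and 2 other genes, YPR160W-A and YPR160C-A, overlap GPH1 by 81 and 285 bases, so that its values are less certain than those of the other genes.

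PGM2 (YMR105C, chromosome XIII, bases 475897 to 477606) encodes the major phosphoglucomutase, and its mean was highest at 1 h in both strains. The WT libraries held 28.4 and 14.4 FPKM untreated, 220.4 and 177.5 at 1 h, 157.8 and 156.4 at 2 h, and 180.3 and 163.6 at 4 h. The lsm1∆ libraries held 37.9 and 39.7 FPKM untreated, 464.2 and 348.3 at 1 h, 315.8 and 350.6 at 2 h, and 314.2 and 350.1 at 4 h. Every lsm1∆ library was above both WT libraries of its time, also untreated. PGM2 rose by 3.22, 2.89 and 3.02 in WT and by 3.34, 3.07 and 3.06 in lsm1∆, which is 9.35-fold and 10.1-fold at 1 h. Against WT, lsm1∆ was called higher by 0.90, 1.02, 1.08 and 0.95 at 0, 1, 2 and 4 h. The untreated call was lost without WT replicate 2, at 0.44, and without lsm1∆ replicate 1 or 2, at 0.94 and 0.87. The call at 1 h was lost without WT replicate 2, at 0.86, or lsm1∆ replicate 1, at 0.81, and that at 4 h without WT replicate 2, at 0.88, or lsm1∆ replicate 2, at 0.87.

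The comparison of lsm1∆ with WT asked which transcripts differ in level when LSM1 is absent. Between the strains, GPH1 and PGM2 were called higher in lsm1∆ at each time, untreated cells included. At 4 h TPS1 and the glycogen synthesis genes GSY1, GSY2 and GLC3 were also called higher, and GLC3 also at 2 h. In the fit to all 16 libraries on the deposited scale, TPS2, TPS3, TSL1 and NTH1 passed the test at no time. The counts of genes called higher were 2, 2, 3 and 6 of 10 at 0, 1, 2 and 4 h, and 0 were called lower. Of all genes tested, 22.2%, 23.2%, 32.0% and 49.8% were called higher, so that the counts of the 10 genes lay near the share of all genes at each time. The median log2 ratio of the 10 genes was 0.23, 0.68, 0.73 and 0.65, beside 0.13, 0.04, 0.17 and 0.37 over all genes.

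After the libraries were centred, 2, 3 and 2 of the 10 genes were called higher in lsm1∆ at 0, 1 and 2 h, where 16.3%, 23.2% and 20.6% of all genes were. At 4 h, 0 were called higher, beside 21.9% of all genes, and only TPS3 was called lower, at -0.53, beside 23.5% of all genes. GPH1 and PGM2 held untreated, at 0.89 and 0.82, at 1 h, at 1.60 and 1.02, and at 2 h, at 0.95 and 0.91, but stood at 0.37 and 0.52 at 4 h. The other calls at 4 h that were lost went from 1.02 to 0.60 for GLC3, from 1.49 to 1.06 for GSY1, from 0.95 to 0.52 for GSY2 and from 0.51 to 0.08 for TPS1. GLC3 was also called at 1 h, at 0.68, and no longer at 2 h, at 0.60. Over all genes, centring changed the split of calls at 4 h from 3473 higher and 439 lower to 1528 higher and 1637 lower. At 2 h it changed the split from 2234 and 541 to 1436 and 1099, and in untreated cells from 1547 and 441 to 1136 and 657. The same held for HU against untreated at 1 h, with 2513 higher and 583 lower before centring and 1017 and 1230 after it in WT, and with 1745 and 656 before and 968 and 1083 after it in lsm1∆. At 2 h the split went from 2169 and 827 to 1277 and 1431 in WT and from 2691 and 707 to 1321 and 1461 in lsm1∆, and at 4 h in lsm1∆ from 3040 and 1028 to 1613 and 1921.

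**Figure D3:**
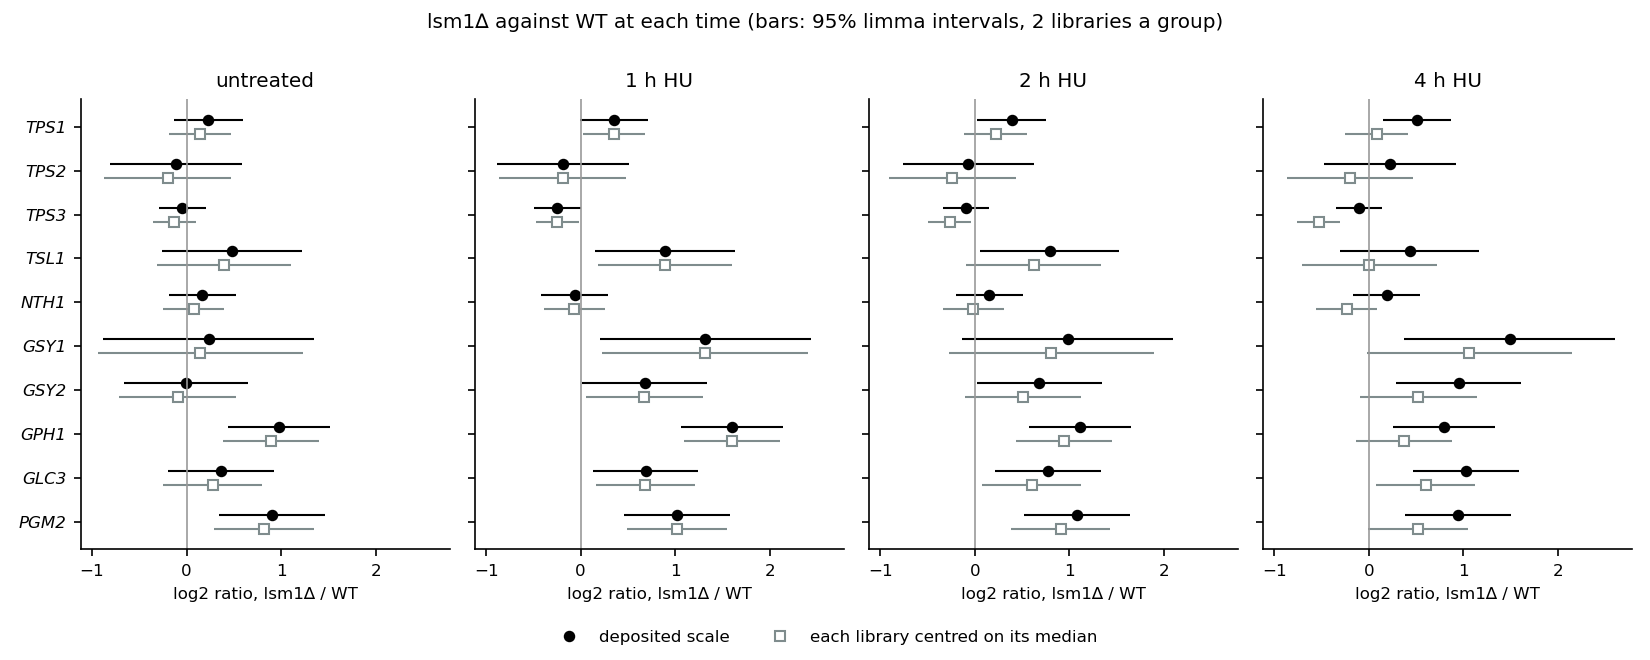
Log2 ratio of lsm1∆ to WT (x axis) for the 10 genes (rows) untreated and at 1, 2 and 4 h of HU, on the deposited scale (filled circles) and after centring of the libraries (open squares), with 95% intervals from limma and 2 libraries per strain and time. GPH1 and PGM2 lie above 0 untreated on both scales, and at 4 h TPS1 moves from 0.51 to 0.08 after centring.

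Whether the HU response differed between the strains was tested as an interaction of strain and HU. By limma, 0 of the 10 genes were called at 1, 2 or 4 h, beside 0.502%, 1.35% and 30.5% of all genes. Unadjusted p-values under 0.05 were found for 0, 0 and 1 of the 10 genes. The one was GSY2 at 4 h, with an interaction of 0.95 and a 95% interval from 0.02 to 1.89. GSY1 and GLC3 at 4 h stood at 1.25, from -0.33 to 2.83, and 0.66, from -0.13 to 1.45. PGM2 and NTH1 at 4 h stood near 0, at 0.04, from -0.75 to 0.83, and 0.03, from -0.47 to 0.52. The interaction at 4 h turned on the untreated WT libraries: without replicate 2, GSY1, GSY2 and GLC3 were called, at 2.09, 1.51 and 1.03, and without replicate 1, GPH1 was called, at -0.66. After centring the count was again 0 at each time, beside 0.659%, 0.96% and 14.2% of all genes.

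The spread between replicates was uneven over the conditions and bears on every ratio to untreated WT. In untreated WT all 10 genes were higher in replicate 1 than in replicate 2, with a median of 2.01-fold and log2 differences from 0.17 for TPS3 to 1.78 for GSY1. Over 6199 genes with a mean of at least 5 FPKM in every condition, the 5th and 95th percentiles of this difference were -0.30 and 0.47. At 1 h all 10 genes were also higher in replicate 1, with a median log2 difference of 0.43 in WT and 0.38 in lsm1∆. These medians lay within the percentiles of the 6199 genes at 1 h, -0.47 and 0.64 in WT and -0.48 and 0.44 in lsm1∆. In untreated lsm1∆, 8 of the 10 genes were higher in replicate 1, with a median of 0.25 and the highest difference, 1.15, for GSY1. At 2 and 4 h the medians were 0.02 and 0.08 in WT and -0.11 and -0.06 in lsm1∆. The bounds that Cufflinks gave for single values were 1.92% to 13.5% of the value, which is less than the difference of most untreated WT pairs. What made these libraries differ was not tested.

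**Figure D4:**
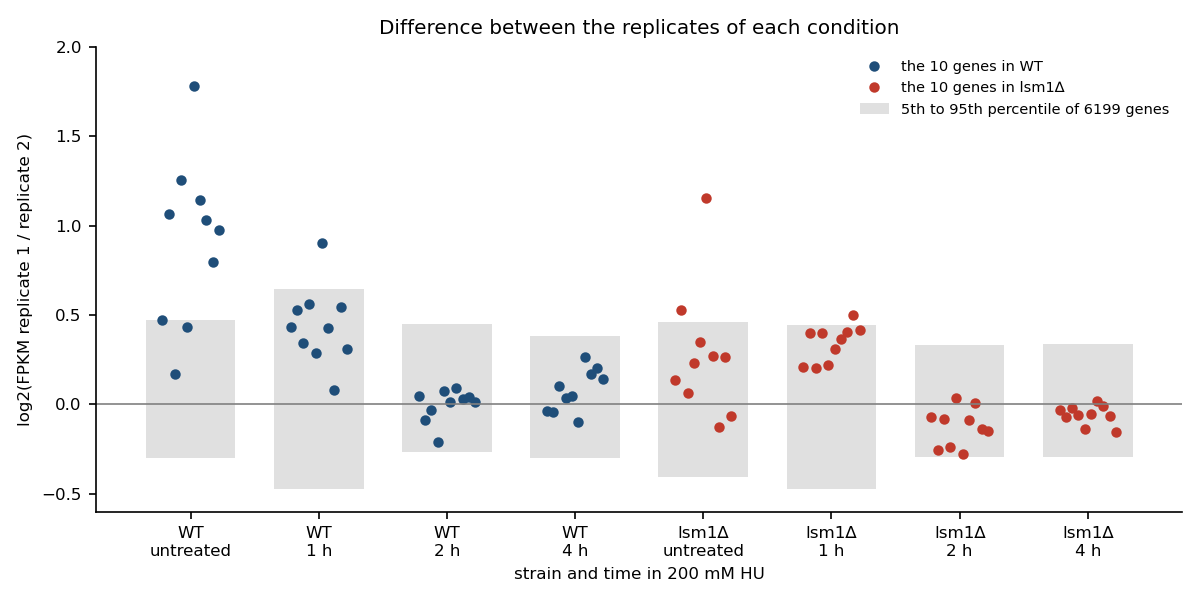
Log2 ratio of replicate 1 to replicate 2 (y axis) for the 10 genes (points, ordered as TPS1, TPS2, TPS3, TSL1, NTH1, GSY1, GSY2, GPH1, GLC3 and PGM2 from left to right) in each condition (x axis), over the 5th to 95th percentile of 6199 genes (grey bars). All 10 points lie above 0 in untreated WT and at 1 h in both strains, with medians of 1.00, 0.43 and 0.38.

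Levels can be compared between genes because FPKM is per length, but less surely for GPH1, which overlaps other genes. Its place in the order and its ratio to GSY2 are therefore less certain. In untreated WT, TPS1 led at a mean of 120.7 ± 27.7 FPKM (SD, n = 2), followed by TPS2 at 71.4 ± 35.7, and the libraries of neighbours in the order overlapped from TPS2 down to GPH1, the lowest at 12.4 ± 6.01. At 4 h in WT the order was TPS1, NTH1, PGM2, GPH1, TSL1, TPS2, TPS3, GSY2, GLC3 and GSY1, and only TSL1 and TPS2 overlapped. At 4 h in lsm1∆ it was TPS1, PGM2, GPH1, NTH1, TSL1, TPS2, GSY2, GLC3, GSY1 and TPS3, with no overlap between neighbours. By its mean GPH1 thus moved from the last place to place 4 in WT, although its untreated libraries overlapped those of GLC3, GSY1 and PGM2. The FPKM ratio of the GPH1 to the GSY2 transcript was 0.384 and 0.416 in untreated WT and 2.49 and 2.65 at 4 h. In lsm1∆ this ratio was 0.722 and 0.951 untreated and 2.28 and 2.32 at 4 h. It compares 2 transcripts, without GSY1, and is not a measure of glycogen breakdown or synthesis. The ratio of GSY2 to GSY1 was 2.94 and 2.29 in WT at 4 h and 1.79 and 1.70 in lsm1∆.

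On the deposited scale most other genes of the pathway also passed as higher under HU in WT, and in lsm1∆ at 2 and 4 h. Of these 8 genes, 6, 7 and 6 were called higher in WT at 1, 2 and 4 h and 0, 0 and 1 lower, and 4, 7 and 7 were called higher and 0 lower in lsm1∆. The shares of all genes called higher were 36.0%, 31.1% and 22.0% in WT and 25.0%, 38.6% and 43.6% in lsm1∆. After centring the counts of the 8 genes called higher were 4, 7 and 6 in WT and 3, 4 and 6 in lsm1∆. The shares of all genes called higher after centring were 14.6%, 18.3% and 23.9% in WT and 13.9%, 18.9% and 23.1% in lsm1∆. Called lower after centring were 0, 0 and 1 of the 8 genes in WT and 1, 0 and 1 in lsm1∆. Of all 6977 genes, 1230, 1431 and 1721 were then called lower in WT and 1083, 1461 and 1921 in lsm1∆. On the deposited scale 583, 827 and 1811 of all genes were called lower in WT. The median log2 ratio of the 8 genes at 4 h was 0.98 in WT and 1.13 in lsm1∆. For lsm1∆/WT at 4 h it was 0.23, with 3 genes called higher and 1 lower, and -0.20 after centring, with 0 higher and 2 lower. Of all genes, 49.8% were called higher in that comparison, and 21.9% higher and 23.5% lower after centring. GDB1, which encodes the glycogen debranching enzyme, rose in WT from 6.62 and 5.43 FPKM untreated to 31.9 and 29.0 at 1 h, 37.8 and 37.6 at 2 h, and 63.1 and 54.2 at 4 h. In lsm1∆ it rose from 5.69 and 7.58 FPKM to 27.6 and 22.7, 26.0 and 27.3, and 37.4 and 37.2. Unlike GPH1, which acts with it on glycogen, GDB1 was lower in lsm1∆ than in WT, with log2 ratios of -0.49 at 2 h and -0.64 at 4 h, and of -0.66 and -1.06 after centring. The call at 2 h on the deposited scale was lost with each of the 4 libraries left out, at -0.45 to -0.52. UGP1, which encodes UDP-glucose pyrophosphorylase, was at 178.0 and 162.9 FPKM in untreated WT and 168.2 and 177.2 in untreated lsm1∆, and at 331.1 and 324.7 in WT and 487.5 and 537.0 in lsm1∆ at 4 h. It rose in WT by 1.00, 0.91 and 0.94 and was higher in lsm1∆ by 0.51, 0.70 and 0.64 at 1, 2 and 4 h, but by 0.22 at 4 h after centring, which did not pass. Its call at 1 h was lost without WT 1 h replicate 2, at 0.43, and without lsm1∆ 1 h replicate 1, at 0.33.

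The paralogues of NTH1 and PGM2 had lower HU ratios in WT at 4 h. NTH2, which shares 72.4% identical bases with NTH1, rose by 0.86 in WT at 4 h, from 16.3 and 15.3 FPKM to 30.2 and 28.6. Its ratio of lsm1∆ to WT at 4 h was 0.07, not called, and -0.35, called, after centring. At 1 h NTH2 stood at -0.56 in lsm1∆ against WT on the deposited scale. The FPKM ratio of NTH1 to NTH2 was then 5.4 and 5.5 in WT and 7.7 and 8.0 in lsm1∆. PGM1, which shares 72.8% with PGM2, was at 92.7 and 85.0 FPKM in untreated WT and 80.3 and 77.5 at 4 h. The call of this fall by 0.17 was lost without WT untreated replicate 1, at -0.11, and without WT 4 h replicate 1 or 2, at -0.19 and -0.14. At 1 and 2 h PGM1, like all 8 genes of this list, had a WT ratio above 0, which was 0.25 for PGM1 at 1 h. In lsm1∆ at 4 h it was higher than in WT by 0.52, and by 0.09, not called, after centring. ATH1, the acid trehalase gene, rose in WT at 4 h by 1.63.

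**Figure D5:**
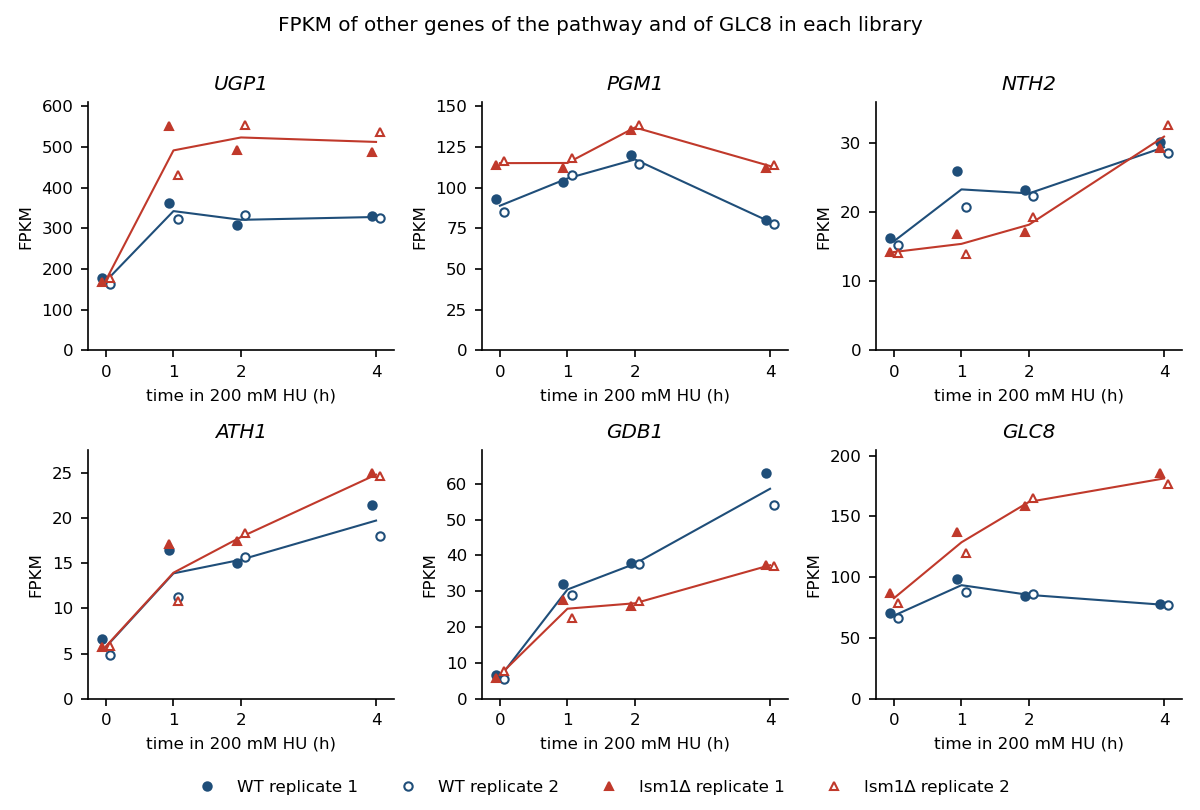
FPKM (y axis, linear, from 0) of UGP1, PGM1, NTH2, ATH1, GDB1 and GLC8 against time in 200 mM HU (x axis, h), in WT (circles) and lsm1∆ (triangles), with replicate 1 filled, replicate 2 open and lines through the means of 2 libraries. At 4 h GDB1 is at 54.2 and 63.1 FPKM in WT and at 37.2 and 37.4 in lsm1∆, while UGP1 and GLC8 are higher in lsm1∆.

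Glycogen synthase is switched on by the phosphatase Glc7 with its targeting subunits and off by kinases such as Pho85 with its cyclins. Of these 9 genes, 3, 4 and 2 were called higher in WT at 1, 2 and 4 h and 0, 0 and 2 lower, and 3, 5 and 7 were called higher in lsm1∆ and 0, 1 and 1 lower. The shares of all genes called higher were 36.0%, 31.1% and 22.0% in WT and 25.0%, 38.6% and 43.6% in lsm1∆. After centring 0, 2 and 2 of the 9 were higher and 0, 1 and 2 lower in WT, and 2, 4 and 5 were higher and 1 lower at each time in lsm1∆. The shares of all genes called higher were then 14.6%, 18.3% and 23.9% in WT and 13.9%, 18.9% and 23.1% in lsm1∆. Of all 6977 genes, 583, 827 and 1811 were called lower in WT and 656, 707 and 1028 in lsm1∆. After centring 1230, 1431 and 1721 were called lower in WT and 1083, 1461 and 1921 in lsm1∆. The median log2 ratio of the 9 genes at 4 h was 0.21 in WT and 0.61 in lsm1∆, and 0.76 for lsm1∆/WT. GIP2 and PIG1, which encode Glc7 subunits, rose in WT at 4 h by 1.42 and 1.07. At 4 h, 7 of the 9 genes were higher in lsm1∆ and 1 lower, and 4 and 1 after centring. Of all genes, 49.8% were called higher and 439 of 6977 lower in that comparison, and 21.9% higher and 23.5% lower after centring. GLC8, a regulator of Glc7, was at 77.7 and 76.7 FPKM in WT at 4 h and 185.8 and 176.7 in lsm1∆, higher by 1.22, and by 0.80 after centring. PHO85 was higher in lsm1∆ at 4 h by 0.81, and by 0.39 after centring.

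Of 6 regulators of stress-responsive transcription, 4, 4 and 3 were called higher in WT at 1, 2 and 4 h, and 0, 0 and 1 lower. After centring 3 were called higher and 0 lower in WT at each time. In lsm1∆, 2, 3 and 4 were called higher and 0 lower, and after centring 1, 1 and 3 higher and 0, 0 and 1 lower. The shares of all genes called higher were 36.0%, 31.1% and 22.0% in WT and 25.0%, 38.6% and 43.6% in lsm1∆. After centring they were 14.6%, 18.3% and 23.9% in WT and 13.9%, 18.9% and 23.1% in lsm1∆. At 4 h, 1811 of all 6977 genes were called lower in WT on the deposited scale, and 1921 in lsm1∆ after centring. The median log2 ratio of the 6 regulators at 4 h was 0.27 in WT and 0.62 in lsm1∆, and for lsm1∆/WT 0.25, or -0.17 after centring. RIM15, which encodes a kinase of the entry into stationary phase, and MSN4 rose in WT at 4 h by 0.86 and 0.70. Against WT, 0, 0 and 3 were higher and 4, 2 and 0 lower in lsm1∆ at 1, 2 and 4 h, and 0 higher and 4, 3 and 2 lower after centring. Of all 6977 genes, 1620, 2234 and 3473 were called higher and 962, 541 and 439 lower at those times. After centring 1620, 1436 and 1528 were higher and 969, 1099 and 1637 lower. GIS1 and MSN4 were higher in lsm1∆ at 4 h by 0.52 and 0.29, and stood at 0.10 and -0.14 after centring, so that the direction of MSN4 depended on the scale. These 2 calls were lost with each of the 4 libraries left out, at 0.47 to 0.58 for GIS1 and 0.25 to 0.32 for MSN4.

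Of 8 stress-responsive genes outside the pathway, 6, 6 and 7 passed as higher at 1, 2 and 4 h in WT, and 7, 7 and 8 did so in lsm1∆, with 0 lower in either strain. The shares of all genes called higher were 36.0%, 31.1% and 22.0% in WT and 25.0%, 38.6% and 43.6% in lsm1∆. The median log2 ratio of the 8 genes at 4 h was 1.37 in WT and 1.59 in lsm1∆, and 1.38 for lsm1∆/WT. HSP12 and DDR2 rose most in WT at 4 h, by 5.09 and 4.70. Against WT, 6, 6, 5 and 5 of the 8 were higher in lsm1∆ at 0, 1, 2 and 4 h, and 6, 6, 4 and 3 after centring. Of all genes, 22.2%, 23.2%, 32.0% and 49.8% were called higher, and 16.3%, 23.2%, 20.6% and 21.9% after centring. DDR2 and HSP26 were higher at 4 h by 2.01 and 2.14, and by 1.58 and 1.72 after centring. Of 9 genes that are repressed on glucose, 5, 4 and 5 were called higher in WT at 1, 2 and 4 h, and 3, 3 and 5 after centring. The shares of all genes were 36.0%, 31.1% and 22.0%, and 14.6%, 18.3% and 23.9% after centring. The median log2 ratio of the 9 genes at 4 h was 0.35 in WT and 0.53 in lsm1∆. For lsm1∆/WT at 4 h it was 0.22, with 3 genes called higher and 0 lower, and -0.21 after centring, with 1 higher and 2 lower. Of all genes, 49.8% were called higher in that comparison, and 21.9% higher and 23.5% lower after centring. HXK1 and GLK1, which encode hexokinase and glucokinase, rose by 2.79 and 2.40 at 4 h, while the gluconeogenic gene FBP1 stood at 0.28 and did not pass the test. HXK1 and ICL1 were higher in lsm1∆ at 4 h by 1.30 and 0.68, and by 0.88 and 0.26 after centring, the last not called.

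For each of the 10 genes, the gene with the most similar pattern was sought by Pearson's r of log2(FPKM + 1) over the 8 condition means among 6189 other genes. These are descriptions, since the means of each gene share the same libraries. PGM2 was closest to HXK1 (r = 0.993), NTH1 to ATH1 (r = 0.997) and TPS2 to SWI4 (r = 0.994), which encodes a G1/S transcription factor. GSY1 was closest to COX4 (r = 0.988), a subunit of cytochrome c oxidase, and GSY2 to CIT1 (r = 0.989), the mitochondrial citrate synthase. TPS3 was closest to YFR016C (r = 0.983) and GLC3 to YNL011C (r = 0.990). TSL1 was closest to YCL042W (r = 0.990) and GPH1 to YPR160C-A (r = 0.999), of which YCL042W overlaps GLK1 and YPR160C-A overlaps GPH1 itself, so that reads of the last pair cannot be told apart. Among the 10 genes, r was highest between TSL1 and PGM2 (0.992) and between TPS1 and PGM2 (0.992), and lowest between TPS3 and GSY1 (0.161).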

How the data were processed

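RNA-seq libraries of rRNA-depleted total RNA were made with the TruSeq RNA v2 kit. The deposited FPKM values, with lower and upper bounds, were made by the authors, 1 table per library, and the submitters' processing notes name TopHat2, Cufflinks, Cuffdiff and build sacCer3. The 10 members, the gene lists, tests and alternatives were chosen with earlier results of these data known. Of 7126 genes, 46 with a failed estimate in any library were left out, and 6977 of the other 7080, all 10 members among them, reached 1 FPKM in 2 or more libraries and were tested. Log2(FPKM + 1) was fitted with limma 3.58.1 (R 4.3.3; lmFit, eBayes with trend = TRUE, 8 residual and 1.85 prior degrees of freedom) in 13 comparisons, each adjusted by Benjamini-Hochberg. The fit was tested on simulated data. Beside the members, genes of the lists were named where they are paralogues (PGM1, NTH2) or 1 of the 2 called genes of their list with the largest ratio in WT or between strains at 4 h, and for each member the gene with the most similar pattern, which is not reported here for TPS1. Alternatives were centring, a pseudocount of 0.1, other filters, a replicate block, a fit of the compared libraries alone, a stricter threshold and leaving out each library. FBP1 was named after its values were seen. Upstream windows were read from R64 with Python 3.11.15 and Biopython 1.88. Positions are those of the coding sequences in R64, none of which has an intron.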

Additional observations from a re-analysis of the deposited data

Results flagged for a closer look

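None of the 10 genes passed the interaction test of strain and HU by limma with Benjamini-Hochberg adjustment. Some genes of the other lists passed it, as did 0.502%, 1.35% and 30.5% of all genes at 1, 2 and 4 h. After centring these shares of all genes were 0.659%, 0.96% and 14.2%. An interaction is the log2 HU ratio in lsm1∆ minus that in WT. Of the storage carbohydrate genes, GDB1 stood at -0.75 and UGP1 at 0.62 at 4 h, and after centring at -1.09 and 0.29, of which only the first was called. GLC8 stood at 0.65 at 2 h, which was lost after centring at 0.56, and at 0.95 at 4 h, and PIG1 at -0.96 at 4 h. HSP12 stood at -2.63 at 4 h. HUG1 stood at -1.95, -1.53 and -1.46 at 1, 2 and 4 h. Of the mating type genes, MFA1 stood at -0.78, STE2 at -0.59 and MFALPHA1 at -1.70 at 4 h, the last in a gene of at most 3.40 FPKM. These 4 h calls were lost without some single libraries: GDB1 without WT untreated replicate 2 or WT 4 h replicate 1, at -0.63 and -0.64, and UGP1 without WT untreated replicate 1, WT 4 h replicate 2, lsm1∆ untreated replicate 1 or lsm1∆ 4 h replicate 2, at 0.55 to 0.61. HSP12 was lost without WT untreated replicate 1, lsm1∆ untreated replicate 2, lsm1∆ 4 h replicate 1 or either WT 4 h replicate, at -1.84 to -2.66. MFALPHA1 was lost without WT untreated replicate 1, WT 4 h replicate 1, lsm1∆ untreated replicate 2 or lsm1∆ 4 h replicate 1, at -1.44 to -1.66. STE2 was lost without WT untreated replicate 1, WT 4 h replicate 2, lsm1∆ untreated replicate 2 or either lsm1∆ 4 h replicate, at -0.42 to -0.61, and MFA1 also without lsm1∆ untreated replicate 1, at -0.63 to -0.86. At 2 h GLC8 was lost without any library but lsm1∆ untreated replicate 1, at 0.58 to 0.69. HUG1 was lost at 1 h without lsm1∆ untreated replicate 1, at -1.83, and at 2 h without WT untreated replicate 1, lsm1∆ 2 h replicate 2 or either WT 2 h replicate, at -1.36 to -1.64. The HU ratios of both strains were compared with 2 libraries per condition, a group size too small to look for single outlying libraries.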

How the results depend on the processing

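The counts of the 10 genes called for lsm1∆ against WT changed most with the settings. On the deposited scale they were 2, 2, 3 and 6, all higher, at 0, 1, 2 and 4 h. Centring left none of the 6 at 4 h, where the count was 1 because TPS3 was then called lower, and an adjusted p below 0.01 gave 0, 1 and 2 at 0, 1 and 4 h. Fitting only the libraries compared gave 0, 1 and 7 at 0, 1 and 2 h, and 2 in place of 7 for WT at 1 h of HU. In that fit of lsm1∆ against WT, TSL1 was gained at 2 h, at 0.79, and TPS2 and TSL1 at 4 h, at 0.22 and 0.43. With single libraries left out, where the lone library is taken to vary like the others, the counts ran from 0 to 3 untreated, 1 to 5 at 1 h and 1 to 4 at 4 h, and the interaction at 4 h from 0 to 3. Same-numbered libraries correlated in their deviations at -0.21 to 0.24, which does not establish a pairing. With the replicate number as a block, the count at 1 h was 6, also when centred, and at 4 h it was 2 when centred and blocked, GLC3 higher and TPS3 lower. That last fit and failed estimates kept at 0 were added after the data had been seen. Between lsm1∆ and WT at 4 h, NTH2 went from 0.07 to -0.35 and MSN4 from 0.29 to -0.14 with centring, with or without the block. No call of the 10 genes changed sign in any setting, and a pseudocount of 0.1, no filter and failed estimates at 0 changed 0 of 130 calls each. The causes were not tested. With 2 libraries per condition, ratios of low or variable genes such as GSY1 have wide intervals.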
